A study of Mus musculus with 2 samples.

Results

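The nuclear genes whose products maintain, transcribe and translate mitochondrial DNA were followed in white adipose tissue. The set holds 36 genes of 19938 named on the array, listed by function, with earlier results of these data known when the list was made. It comprises 5 of mitochondrial DNA (mtDNA) replication and upkeep, 5 of transcription, 2 of messenger RNA stability, 16 aminoacyl-tRNA synthetases and 8 translation factors. Ribosomal proteins were not part of it. One array held fat labelled Oma1-deficient and the other fat labelled as Oma1 wild-type control, both from mice 24 weeks old and given a high-fat diet for 20 weeks. OMA1 is a protease anchored in the inner membrane of mitochondria. There was 1 array for each genotype, and the labels give neither the fat depot, the kind of Oma1 allele, the strain, nor whether RNA of several animals was pooled. Every difference below therefore compares 1 array with 1 other, no test of the genotype was possible, and the spread between animals was not measured.

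Mitochondria carry their own small circular genome, which encodes core subunits of the respiratory chain together with the ribosomal and transfer RNAs needed to make them. Everything else that this genome needs is encoded in the nucleus and imported: a dedicated DNA polymerase, a single-subunit RNA polymerase with its factors, a set of synthetases that load amino acids onto mitochondrial tRNAs, and translation factors of bacterial type. In adipocytes this machinery supports the oxidative capacity used in lipid synthesis, adipokine secretion and, in brown fat, heat production.

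Values are probe set intensities on a linear scale, and differences are log2(intensity + 1) in the Oma1-deficient array minus the same in the wild-type array. Genes whose mean over both arrays was under an intensity of 83.0, the median of all probe sets, are called dim, and 31 of the 36 genes lay above this filter. The dim ones were Polg2, Tfam, Pars2, Mtrf1 and Mtrf1l. A technical yardstick came from the 545 genes above the filter that were read by 2 probe sets, whose differences scattered with an SD of 0.17 (log2) around the mean of their gene. This yardstick holds no variation between animals or samples, and it was not measured for dim genes. Of the 36 genes, 33 had 1 probe set and 3 had 2. Both arrays had a median of 83 over 35512 probe sets. Oma1 itself read 155 in the Oma1-deficient array, against 187 in the wild-type array, a difference of -0.27, and since the disrupted part of the gene is not given, this does not check the label.

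As a whole the machinery differed little between the arrays. None of the 36 genes reached 1.5-fold, a size that 1.25% of the 11399 genes above the filter reached on the higher and 1.75% on the lower side, and 2.55% of all named genes in either direction. A difference of at least 1.2-fold was found for 5 genes (13.9%), while 21.8% of the genes above the filter and 21.4% of all named genes passed that size. Tfb1m, Top1mt, Hars2 and Tfam were the 4 lower ones (11.1%), where 14.6% of genes above the filter were lower by that much, and Pars2 was the 1 higher (2.78%), where 7.17% were. The lower count depends on the scale: Hars2 no longer passed after quantile normalisation (-0.25), Tfam with a pseudocount of 16 (-0.26), and neither passed after centring on the median of the genes above the filter (-0.26 and -0.25), which left 3, 3 and 2 genes. Over all named genes the share was 10.7% on either side. In all, 21 of the 36 genes (58.3%) were lower and 15 (41.7%) higher in the Oma1-deficient array, against 62.3% and 36.6% of the genes above the filter. The median difference was -0.03, beside -0.06 for the genes above the filter and 0.00 for all named genes. The signs of small differences depend on the scaling, since 20 of the 36 genes were higher after quantile normalisation and 23 after centring on the median of the genes above the filter.

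The 36 differences ran from -0.47 to 0.43. Their interquartile range was 0.20, narrower than the 0.28 of the 10065 genes with mean intensities in the same span. A difference larger than the 0.17 between probe sets was seen for 11 of the 36 genes (30.6%), 9 lower and 2 higher. Among genes above the filter 41.0% passed this size, 27.5% lower and 13.5% higher. The split moved with the scaling, to 6 lower and 4 higher after quantile normalisation or loess and to 5 lower and 3 higher after centring. The 9 lower genes were Tfb1m, Top1mt, Hars2, Tfam, Tsfm, Gfm2, Tfb2m, Mtrf1l and Lrpprc, and the 2 higher ones were Pars2 and Lars2. Tfam, Mtrf1l and Pars2 are dim, and the scatter between probe sets of dim genes was not measured. Among the lower genes, Gfm2, Tfb2m and Lrpprc no longer passed after quantile normalisation, loess or centring. Mtrf1l no longer passed after centring (-0.13) or with a pseudocount of 16 (-0.16). Cars2 joined the higher genes after quantile normalisation, loess and centring, and Polrmt after quantile normalisation (0.18) and loess (0.17).

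**Figure D1:**
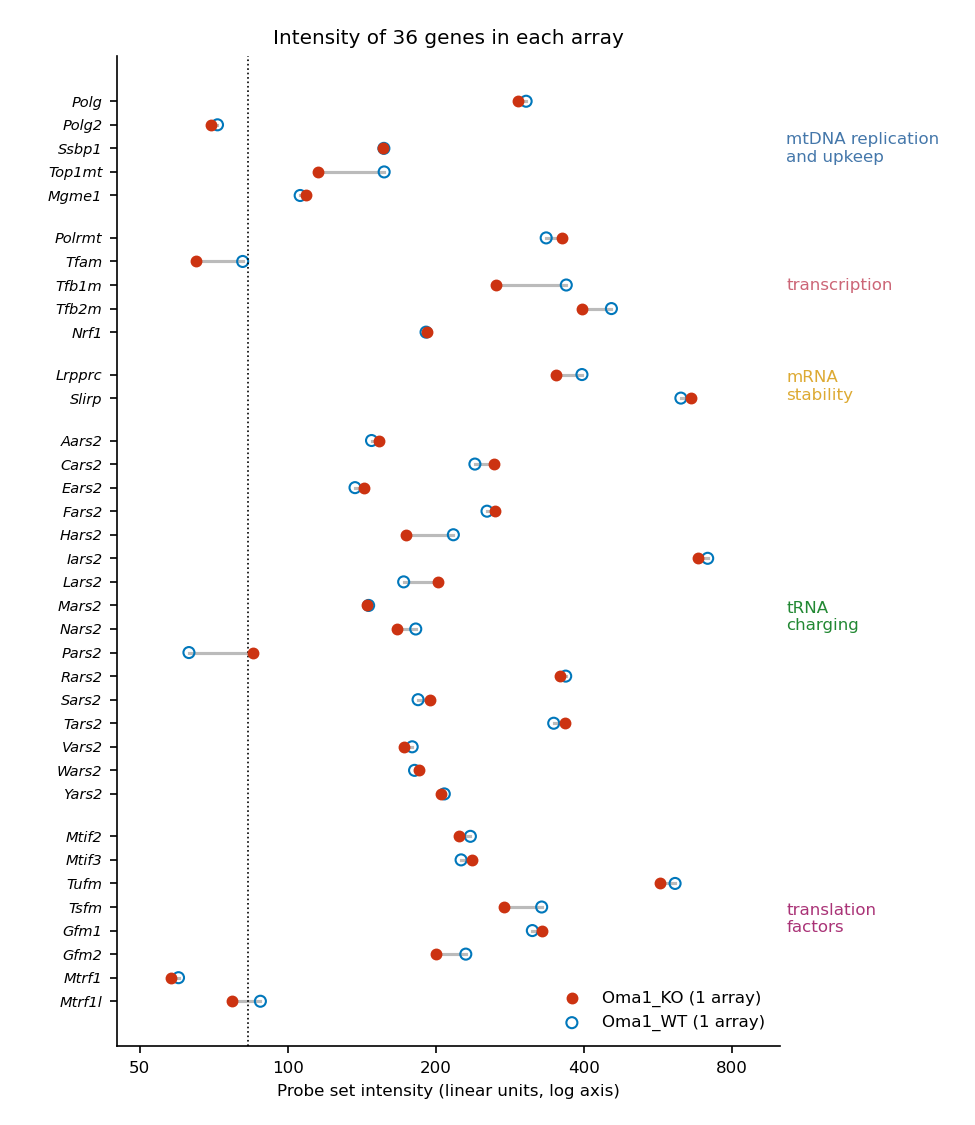
Probe set intensity (log axis) of the 36 genes in the Oma1_KO array (filled red points) and the Oma1_WT array (open blue points), by role; a grey line joins the values of a gene and the dotted line marks the filter intensity of 83.0. The widest gaps are those of Tfb1m (265 against 368), Top1mt (115 against 157) and Pars2 (85 against 63), and for most other genes the points nearly coincide.

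Among the genes of mtDNA replication and upkeep, Top1mt had the largest difference and the polymerase a small one. Polg, the catalytic subunit of the only replicative mtDNA polymerase, read 293 in the Oma1-deficient array, against 305 in the wild-type array (-0.06). Its accessory subunit Polg2, which keeps the enzyme on its template, was dim in both arrays at 70, against 72 (-0.04). The subunits thus had nearly the same small difference, -0.02 apart. Ssbp1, the protein that coats single-stranded mtDNA, had 2 probe sets that went opposite ways: the brighter read 229 in the Oma1-deficient array, against 248 in the wild-type array, and the dimmer 106, against 99. Their mean difference was -0.01, so Ssbp1 was level within the disagreement of its own probe sets. Mgme1, an exonuclease that trims flaps left by replication, read 109 in the Oma1-deficient array, against 106 in the wild-type array (0.04). Top1mt, a topoisomerase that relaxes supercoils in mtDNA, read 115 in the Oma1-deficient array, against 157 in the wild-type array, a difference of -0.45. Only 504 of the 11399 genes above the filter (4.42%) had a lower difference than Top1mt. It lay 0.39 below Polg, where 1 technical SD of the difference between genes of 1 probe set each is 0.24.

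The transcription group had the lowest median of the role groups, -0.19, set by 3 of its 5 genes. Tfb1m is among these 3 and acts in ribosome assembly, so the median is not that of transcription factors alone. Tfb1m had the lowest difference of the 36 genes, at 265 in the Oma1-deficient array, against 368 in the wild-type array (-0.47). Tfb1m methylates adenines of the small ribosomal RNA of mitochondria and is needed for ribosome assembly rather than for initiation of transcription. Its paralog Tfb2m is the initiation factor that opens the promoter for the RNA polymerase. The 2 probe sets of Tfb2m read 395 and 399 in the Oma1-deficient array, against 453 and 456 in the wild-type array, differences of -0.20 and -0.19. Whether these probe sets share target sequence is not known here, so they are not counted as independent readings. Tfb2m lay inside the 0.17 yardstick after quantile normalisation (-0.13), loess (-0.12) and centring (-0.13). Tfb1m lay 0.28 below Tfb2m.

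Tfam, which bends promoter DNA and packages the mitochondrial genome into nucleoids, was dim, at 65 in the Oma1-deficient array, against 81 in the wild-type array (-0.31). At such intensities background can make up much of the signal, and Tfam was read by 1 probe set, so the size of its difference is uncertain. Polrmt, the RNA polymerase itself, went the other way with 360 in the Oma1-deficient array, against 335 in the wild-type array (0.10). Nrf1, a nuclear transcription factor that activates many genes of this machinery, was level at 192, against 191 (0.01). Polrmt was past the yardstick after quantile normalisation (0.18) and loess (0.17). Without the dim Tfam the median of the group was -0.09.

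Downstream of transcription, Lrpprc and Slirp form a complex that protects mitochondrial messenger RNAs from decay. Lrpprc read 350 in the Oma1-deficient array, against 396 in the wild-type array (-0.18). Its partner Slirp read 661, against 629 (0.07). The partners differed in sign and lay 0.25 apart, about 1 technical SD of such a difference (0.24).

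**Figure D2:**
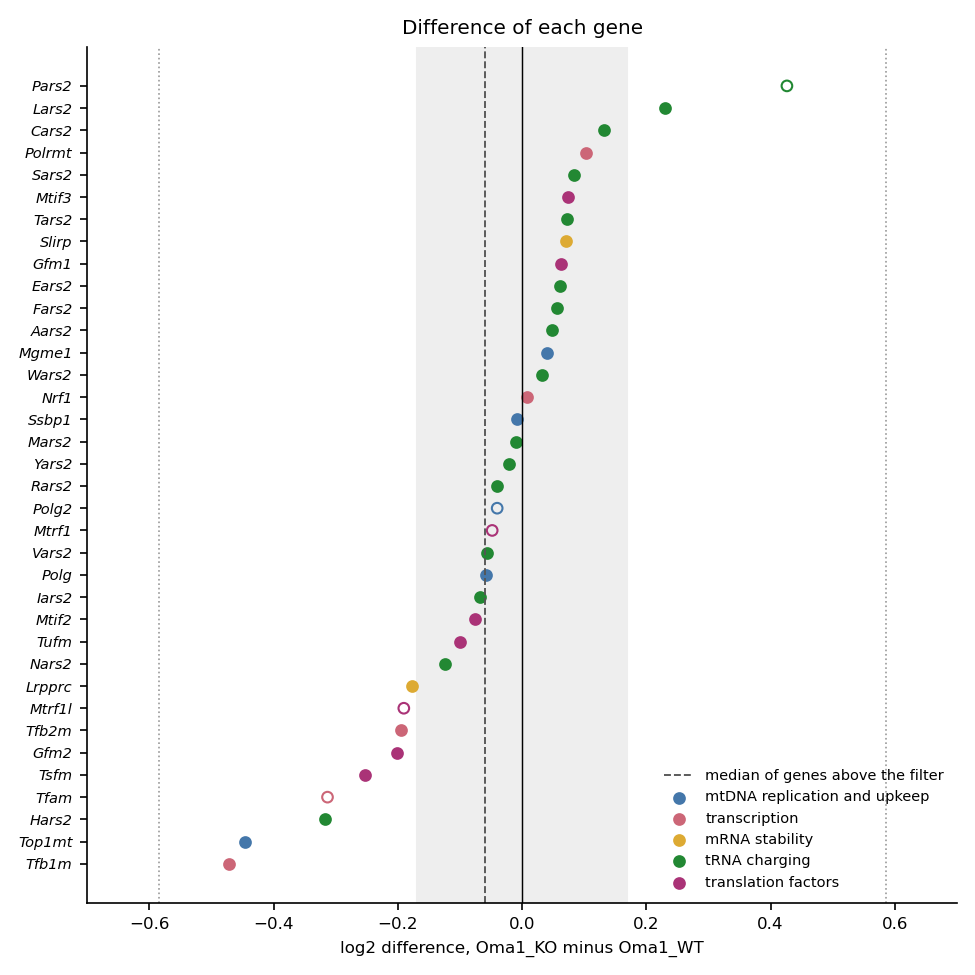
Difference in log2(intensity + 1), Oma1_KO minus Oma1_WT, for the 36 genes in order, coloured by role; open points are dim genes, the grey band is the SD between probe sets (0.17 each way), the dashed line the median of genes above the filter (-0.06) and the dotted lines 1.5-fold. All points lie between the dotted lines, 25 of them inside the band, with Tfb1m and Top1mt lowest and the dim Pars2 highest.

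The 16 mitochondrial aminoacyl-tRNA synthetases, each of which loads its amino acid onto the matching tRNA, were split in direction. Of them 9 were higher and 7 lower (43.8%) in the Oma1-deficient array, beside 36.6% and 62.3% of the genes above the filter. Their median difference was 0.04, beside -0.06. Of the 16, 13 lay inside the yardstick of 0.17, which 41.0% of the genes above the filter passed. The exceptions were Hars2, Lars2 and Pars2, and Cars2 joined them after quantile normalisation, loess or centring (0.19, 0.20 and 0.19). Hars2, for histidine, read 174 in the Oma1-deficient array, against 217 in the wild-type array (-0.32). Lars2, for leucine, read 202, against 172 (0.23), and 90.9% of the genes above the filter had a lower difference. Pars2, for proline, had the highest difference of the 36 genes, 0.43, but read only 85 in the Oma1-deficient array, against 63 in the wild-type array. Pars2 was dim by its mean over both arrays, and its excess corresponds to few intensity units.

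The other synthetases differed by at most 0.13 in size. On the higher side, Cars2 (cysteine) read 263 in the Oma1-deficient array, against 240 in the wild-type array (0.13). Sars2 (serine) read 195, against 184 (0.08). Tars2 (threonine) read 365, against 347 (0.07). These 3 were followed by a cluster of enzymes with smaller positive differences. Ears2 (glutamate) read 143, against 137 (0.06). Fars2 (phenylalanine) read 264, against 254 (0.06). Aars2 (alanine) read 153, against 148 (0.05). Last among the higher enzymes came the tryptophan enzyme. Wars2 read 185 in the Oma1-deficient array, against 181 in the wild-type array (0.03).

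On the lower side, Nars2 (asparagine) read 167 in the Oma1-deficient array, against 182 in the wild-type array (-0.12). Iars2 (isoleucine) read 680, against 713 (-0.07). Vars2 (valine) read 172, against 179 (-0.06). The remaining enzymes were closer still. Rars2 (arginine) read 357, against 367 (-0.04). Yars2 (tyrosine) read 205, against 208 (-0.02). Mars2 (methionine), which also provides the tRNA that starts each mitochondrial protein after formylation, read 145, against 146 (-0.01). Differences this small changed sign with the scaling: Rars2, Yars2 and Mars2 were positive after quantile normalisation, loess and centring, and Vars2 was positive in 1 of these.

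Each amino acid is also loaded by a cytosolic enzyme, usually from a separate gene, which serves protein synthesis outside mitochondria. Of the 16 mitochondrial enzymes, 15 could be set against a measured cytosolic counterpart, and the proline and glutamate enzymes share 1, the fused enzyme Eprs. Of the 14 cytosolic genes in these pairs, 12 were lower in the Oma1-deficient array, with a median of -0.13. Over the whole list of cytosolic synthetases 15 of 19 (78.9%) were lower, with a median of -0.08, beside 62.3% and -0.06 for the genes above the filter. The mitochondrial enzyme had the higher difference in 11 of the 15 pairs, by a median of 0.17. The widest gaps were those of Pars2 over Eprs (0.72), Lars2 over Lars (0.43), Tars2 over Tars (0.36) and Ears2 over Eprs (0.36). Hars2 lay 0.24 below Hars. Since 0.24 is 1 technical SD of such a gap, gaps of about this size are not told from scatter between probe sets, and the share of other gene pairs past it was not computed. Eprs read 875 in the Oma1-deficient array, against 1073 in the wild-type array (-0.29). Tars read 195, against 239 (-0.29). Yars, for tyrosine, read 397, against 456 (-0.20). Lars read 363, against 416 (-0.20). The mitochondrial partners Tars2 and Ears2 themselves differed by 0.07 and 0.06. After quantile normalisation and after loess the mitochondrial enzyme was still higher in 11 of 15 pairs, by medians of 0.17 and 0.16. Among genes above the upper quartile of intensity only the isoleucine and arginine pairs remained, with the mitochondrial enzyme lower in both (median -0.08).

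**Figure D3:**
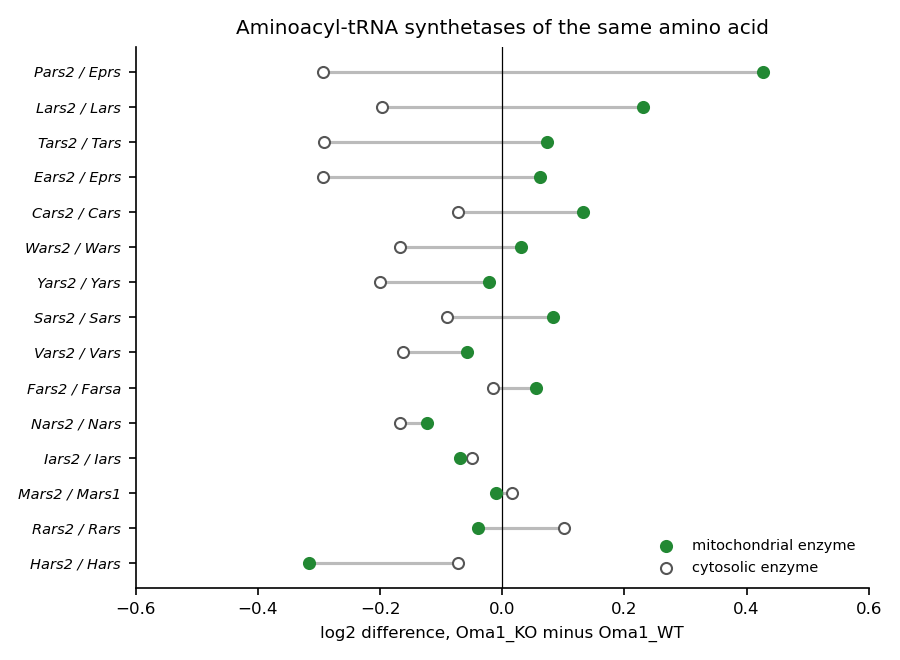
Difference in log2(intensity + 1), Oma1_KO minus Oma1_WT, of the mitochondrial (filled green) and cytosolic (open) synthetase of the same amino acid in 15 pairs, ordered by the gap between them. The filled point lies to the right in 11 pairs, most widely for Pars2 over Eprs (0.72), and 12 of the 14 cytosolic genes lie left of 0.

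Of the 8 translation factors 6 were lower and 2 higher, beside 62.3% lower among the genes above the filter. Their median was -0.09, beside -0.06, and -0.03 after centring on that value. Of 14 cytosolic translation factors 9 (64.3%) were lower, with a median of -0.07. Initiation factor Mtif2, which brings the starter tRNA to the ribosome, read 223 in the Oma1-deficient array, against 235 in the wild-type array (-0.08). Mtif3, which keeps the ribosomal subunits apart before initiation, read 237, against 225 (0.07). The initiation factors therefore lay on either side of 0, each inside the yardstick.

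Elongation factor Tufm delivers loaded tRNAs to the ribosome, and Tsfm returns Tufm to its active form. The 2 probe sets of Tufm read 465 and 702 in the Oma1-deficient array, against 497 and 754 in the wild-type array, with the same difference of -0.10 each. Tsfm read 275, against 328 (-0.25), the lowest value among the translation factors. The gap of Tsfm below Tufm, 0.15 in size, was under 1 technical SD of a difference.

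Gfm1 and Gfm2 are paralogous GTPases with separate tasks, Gfm1 moving the ribosome along the message and Gfm2 splitting it from the message after termination. Gfm1 read 328 in the Oma1-deficient array, against 314 in the wild-type array (0.06). Gfm2 read 200, against 230 (-0.20). Gfm2 lay 0.26 below Gfm1, about 1 technical SD of a difference. The release factors were dim: Mtrf1l, which ends translation at the standard stop codons, read 77 in the Oma1-deficient array, against 88 in the wild-type array (-0.19). Its paralog Mtrf1 read 58, against 60 (-0.05).

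Other genes of the same processes were described from lists made by function, also with earlier results of these data known. Over 6 lists of further nuclear genes for mtDNA replication, transcription, RNA processing, tRNA modification, tRNA charging and translation, 71 were measured, of which 47 (66.2%) were lower and 23 higher, with a median of -0.08. Of these, 11 (15.5%) were at least 1.2-fold lower and 2 (2.82%) at least 1.2-fold higher, near or under the 14.6% and 7.17% of the genes above the filter, and none reached 1.5-fold. The list of tRNA modification enzymes had the lowest median of the 6, -0.14, with 10 of 12 genes lower. Past 1.2-fold were 4 on the lower (33.3%) and 1 on the higher side (8.33%). Cdk5rap1, which adds a methylthio group to mitochondrial tRNAs, read 155 in the Oma1-deficient array, against 219 in the wild-type array (-0.50). Yrdc, which takes part in adding threonylcarbamoyl groups to tRNAs of both compartments, read 87, against 113 (-0.37). Mto1 and Gtpbp3, partners in modifying the wobble base, went opposite ways. Mto1 read 173 in the Oma1-deficient array, against 227 in the wild-type array (-0.39). Gtpbp3 read 144, against 115 (0.32).

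In RNA processing and decay 16 of 19 genes (84.2%) were lower, with a median of -0.11, beside 62.3% and -0.06 for the genes above the filter. Past 1.2-fold were 3 of the 19 (15.8%), all lower, beside 14.6%. Trnt1, which adds the CCA end to tRNAs in mitochondria and cytosol, read 121 in the Oma1-deficient array, against 172 in the wild-type array (-0.50). Prorp, the nuclease subunit of mitochondrial RNase P, read 332, against 433 (-0.38). Ptcd3, which associates with the small mitochondrial ribosomal subunit, read 279, against 356 (-0.35). Fastkd1, of a family of mitochondrial RNA-binding proteins, read 130, against 156 (-0.26). After quantile normalisation and after loess the medians of the tRNA modification list were -0.14 and -0.16, and those of the processing list -0.06 and -0.05. In replication, where 11 of 18 genes were lower with a median of -0.02, the helicase Twnk, which unwinds mtDNA ahead of Polg, read 74 in the Oma1-deficient array, against 106 in the wild-type array (-0.51). Poldip2, a partner of a nuclear DNA polymerase that is also found in mitochondria, read 1389, against 1839 (-0.40). Exog, a mitochondrial nuclease, read 85, against 108 (-0.34). Dguok, a kinase that supplies purine deoxynucleotides for mtDNA, read 1772, against 1462 (0.28).

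In translation, 6 of 12 further genes were higher and 5 lower, with a median of 0.01. Taco1, an activator of the translation of a cytochrome oxidase subunit, read 137 in the Oma1-deficient array, against 176 in the wild-type array (-0.36). The next largest differences were 0.25 for Mettl17, 0.23 for Mtg2 and -0.22 for Noa1, all assembly factors of mitochondrial ribosomes. The further transcription genes (5 measured) had a median of -0.05, and the further charging genes (5 measured) of 0.02. Gars, which loads glycine in both compartments, differed by -0.21. For glutamine, mitochondria instead convert a misloaded tRNA with a complex of Qrsl1, Gatb and Gatc, whose differences were 0.16, -0.18 and 0.10.

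Of the 14 nuclear regulators of mitochondrial biogenesis 9 were lower (64.3%), 4 higher and 1 equal, beside 62.3% lower among the genes above the filter. Their median was -0.04, beside -0.06 for the genes above the filter, and no gene was past 1.2-fold. The SD between probe sets was passed by 6 of the 14, and by 41.0% of the genes above the filter. The coactivator Ppargc1a had 2 probe sets, which read 40 and 130 in the Oma1-deficient array, against 44 and 162 in the wild-type array, for a mean of -0.22. It was dim by its mean. Prkaa2, a catalytic subunit of the energy sensor AMPK, read 198 in the Oma1-deficient array, against 167 in the wild-type array (0.24). Esrrg, a nuclear receptor related to Esrra, read 95, against 112 (-0.24). Gabpa, the DNA-binding subunit of an activator of this machinery, read 388, against 454 (-0.23). Esrra, a nuclear receptor that works with Ppargc1a, read 278, against 243 (0.19).

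Transcripts of mtDNA itself could be read for 2 protein genes, which the platform annotation calls COX2 and ND3 and which were matched by hand to mt-Co2 and mt-Nd3 after the values could be seen. COX2, a cytochrome oxidase subunit, read 7073 and 7084 on its 2 probe sets in the Oma1-deficient array, against 8096 and 7797 in the wild-type array, differences of -0.19 and -0.14. ND3, a subunit of complex I, read 2657 and 5638, against 2542 and 5816, differences of 0.06 and -0.04. The genome's output as far as measured thus lay within 0.20 of equality. The nuclear genome carries copies of mtDNA, so these probe sets may take signal from more than 1 locus.

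**Figure D4:**
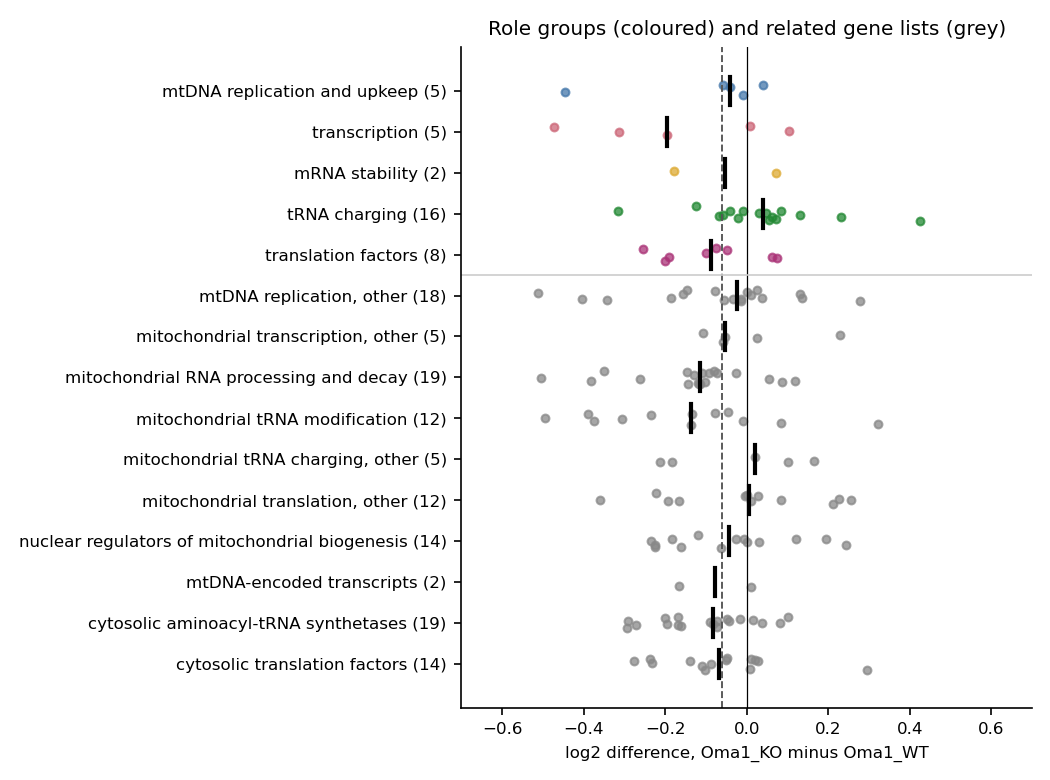
Difference in log2(intensity + 1), Oma1_KO minus Oma1_WT, of each measured gene in the 5 role groups (coloured) and in related lists (grey), with the number of genes in brackets; black bars are medians, the solid line is 0 and the dashed line the median of genes above the filter (-0.06). Medians run from -0.19 for the transcription group, which includes Tfb1m, to 0.04 for tRNA charging, and the points of the groups overlap widely.

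Promoters were examined for letters bound by known activators of this machinery, to see whether genes that share a motif also shared a difference. RefSeq sequences of assembly GRCm38.p6, reaching from 250 bases before to 50 after a gene's start, were matched for 32 of the 36 genes. Both strands were searched. The NRF1 motif GCGCANGCG was present in 7 of the 32 (21.9%), against 6.25% of all 32851 promoters and 9.63% of 17491 protein-coding genes. The ETS motif CCGGAAG, read by GABP, was present in 13 (40.6%), against 8.86% and 12.9%. The YY1 motif AAGATGGCG was present in 5 (15.6%), against 1.40% and 2.14%. Less specific letters were also searched: the shorter TGCGCA, which can overlap the NRF1 motif, in 5 (15.6%, against 7.76% of all promoters), and the Sp1 motif GGGCGG in 21 (65.6%, against 35.7% and 49.2%). The E-box CACGTG was present in 1, Ears2 (3.12%, against 7.15% and 8.91%), and the ATF4-type letters TGATGNAA in none (against 3.97% and 4.13%). A match describes the letters and not binding.

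Genes with the NRF1, the ETS or the YY1 motif had differences of both signs, and those with the YY1 motif lay near 0. The 7 genes with the NRF1 motif ran from -0.20 (Gfm2) to 0.10 (Polrmt), 5 lower and 2 higher. The 13 with the ETS motif ran from -0.31 (Tfam) to 0.13 (Cars2), 8 lower and 5 higher. The 5 with the YY1 motif ran from -0.02 (Yars2) to 0.07 (Slirp), 1 lower and 4 higher. Beside these counts, 62.3% of the genes above the filter were lower. Sequences are shown for 6 genes with differences from -0.47 (Tfb1m) to 0.10 (Polrmt), and the higher Cars2, Lars2 and Pars2 are not among them. The following lines give the 150 bases before the start, 5′ to 3′ on the gene's strand, with NRF1, ETS and YY1 matches in capitals in either orientation.
Tfb1m, chr17:3557756-3557905, - strand: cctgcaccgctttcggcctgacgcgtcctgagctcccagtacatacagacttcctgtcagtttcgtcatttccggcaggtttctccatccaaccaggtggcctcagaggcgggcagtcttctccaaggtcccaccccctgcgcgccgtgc
Tfam, chr10:71238045-71238194, - strand: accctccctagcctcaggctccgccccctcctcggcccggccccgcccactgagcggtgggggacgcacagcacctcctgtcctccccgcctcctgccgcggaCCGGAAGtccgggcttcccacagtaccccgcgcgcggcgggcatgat
Gfm2, chr13:97137787-97137936, + strand: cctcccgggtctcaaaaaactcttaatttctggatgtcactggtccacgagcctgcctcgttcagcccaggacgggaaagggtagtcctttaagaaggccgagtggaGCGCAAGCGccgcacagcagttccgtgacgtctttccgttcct
Vars2, chr17:35667593-35667742, - strand: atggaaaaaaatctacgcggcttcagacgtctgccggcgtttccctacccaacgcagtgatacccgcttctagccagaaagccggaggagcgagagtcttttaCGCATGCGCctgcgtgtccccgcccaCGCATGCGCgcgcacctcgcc
Slirp, chr12:87443746-87443895, + strand: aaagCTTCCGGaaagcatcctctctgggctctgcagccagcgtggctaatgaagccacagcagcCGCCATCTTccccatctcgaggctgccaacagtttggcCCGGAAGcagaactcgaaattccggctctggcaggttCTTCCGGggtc
Polrmt, chr10:79746582-79746731, - strand: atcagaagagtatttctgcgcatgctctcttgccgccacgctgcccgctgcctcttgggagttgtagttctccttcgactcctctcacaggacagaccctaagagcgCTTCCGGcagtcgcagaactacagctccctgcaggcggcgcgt
Polrmt has its ETS letters at positions -43 to -37 from the start, and its NRF1 letters overlap or follow the start and so are not in the stretch shown. Tfam, dim and lower (-0.31), has ETS letters at positions -47 to -41. Slirp, level at 0.07, carries 3 ETS matches and 1 of YY1. Gfm2 and Vars2, at -0.20 and -0.06, carry 1 and 2 NRF1 matches. In Tfb1m, the lowest of the 36 genes, none of these 3 motifs is found in this window.

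White adipose tissue is a mixture of cells, and in bulk tissue fewer cells of a type and less RNA per cell cannot be told apart. Markers of adipocytes were bright in both arrays: the 9 measured of 10 summed to 55122 in the Oma1-deficient array, against 61946 in the wild-type array, with 8 of 9 lower and a median of -0.12. Beside this and the following counts, 62.3% of the genes above the filter were lower and 36.6% higher, with a median of -0.06. Of the 12 macrophage markers 11 were higher (median 0.29, sums 41117 against 34587). Of 8 measured hepatocyte markers 7 were higher (median 0.87, sums 8125 against 3583). All 8 endothelial markers were lower (median -0.36, sums 7132 against 9219), as were 7 of 8 mesothelial markers (median -0.55, sums 1761 against 2586). Of 5 measured markers of B and plasma cells 4 were lower (median -0.51, sums 1159 against 1164): Cd79a read 75 in the Oma1-deficient array, against 163 in the wild-type array (-1.11), while Jchain read 575, against 323 (0.83). Of 8 brown adipocyte markers 4 were higher, 3 lower and 1 equal (median 0.06, sums 3038 against 2670), with Cidea at 213, against 84 (1.33). Of 5 T cell markers 3 were lower (60.0%, near the share of all genes above the filter, median -0.10, sums 497 against 539). Of 6 skeletal muscle markers 4 were higher (median 0.03, sums 590 against 565). No measured marker had an intensity of 0, and the lowest of any probe set was 8 in both arrays. The part of these markers in the differences of Tfb1m, Top1mt and the other genes above was not tested.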

How the data were processed

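White adipose tissue was measured on 1 array labelled Oma1-deficient and 1 labelled control; per the labels, Trizol RNA was labelled with biotin for Affymetrix Mouse Gene 1.0 ST arrays. The deposited values are linear intensities in whole numbers from 8 to 21365, 1 for each probe set and array. For software, background correction, summarisation and scaling, the sources used here give nothing. The upper quartiles were 318 in the Oma1-deficient array and 335 in the wild-type array.

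GEO's platform annotation gave 21789 of 35512 probe sets a single symbol, 1621 several and 12102 none; only the first kind was used. They named 19938 genes, and 21698 had a gene identifier in the RefSeq table of GRCm38.p6. Probe sets of a gene were averaged as log2(intensity + 1), which understates differences of dim genes. Genes above the filter (11399, 57.2%) had a mean of at least 83.0, the median over probe sets. With 1 array per group no test was made, and counts past 1.2-fold and 1.5-fold stand beside those of all genes. The precision is limited by the number of arrays. The procedure was tested on simulated data for the recovery of differences past 1.5-fold only. The simulation does not bear on the calls past 1.2-fold or past the SD between probe sets.

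The genes and lists were chosen with earlier results of these data known. All 36 genes are named; of other lists, up to 4 with the largest differences above the filter, plus Ppargc1a, Twnk and Oma1. COX2 and ND3, and of the markers Cd79a, Jchain and Cidea, were named after their values were seen. The sums of marker intensities are descriptions. Python 3.11.15, numpy 2.4.6, pandas 2.3.3, statsmodels 0.14.6 and matplotlib 3.10.9 were used. Alternatives were quantile normalisation, loess, centring, the brightest probe set, a pseudocount of 16 and other filters.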

Additional observations from a re-analysis of the deposited data

How the results depend on the processing

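No paired analysis was possible because each genotype had 1 array, and none could be left out. None of the 36 genes reached 1.5-fold under any of the 8 alternatives, 7 planned and 1, the members above the filter alone, added after seeing the data. The count at least 1.2-fold higher, 1, became 2 with quantile normalisation, loess and centring, and 0 with members above the filter alone. The count at least 1.2-fold lower, 4, was 3 with quantile normalisation, a pseudocount of 16 and members above the filter alone. Past the SD between probe sets lay 9 lower and 2 higher genes, against 6 and 4 with quantile normalisation and loess, 5 and 3 with centring, 2 and 0 with the upper-quartile filter, and 7 and 1 with members above the filter alone. Centring on the median of the genes above the filter gave 23 higher and 13 lower genes and 2 at least 1.2-fold lower, beside 1243 higher and 1096 lower by that size among all genes above the filter, which without it were 817 and 1668. A filter set to the upper quartile left 8 of the 36 genes, 3 higher and 5 lower, 0 past 1.2-fold in either direction, beside 283 and 733 genes past 1.2-fold and 54 and 81 past 1.5-fold (143 and 199 at the median filter). Under it 2 synthetase pairs were left, 0 with the mitochondrial enzyme higher, with a median of -0.080. With no filter 2127 genes were at least 1.2-fold and 229 at least 1.5-fold higher. The median of the 36 genes ran from -0.05 to 0.03. Its sign changed with quantile normalisation, loess and centring, which changed the sign of 5, 5 and 8 genes. Tfb1m ran from -0.47 to -0.40, Top1mt from -0.45 to -0.39, Hars2 from -0.32 to -0.25, Tfam from -0.36 to -0.25 and Pars2 from 0.35 to 0.49. Signal near background limits the 5 dim genes, and also genes close to the filter such as Twnk, Exog and Yrdc. The planned comparison of paralogous proteins was not run.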
